A study of Homo sapiens with 9 samples.

Results

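The genes described here encode the cation channels named CACN (calcium), SCN (sodium) and KCN (potassium). They were chosen by symbol alone, as the autosomal protein-coding genes of GENCODE 44 on GRCh37 whose symbols begin with CACNA, CACNB or CACNG, or consist of SCN, a number and A or B, or of KCN, further letters and a number. The rule found 131 of 19229 autosomal protein-coding genes, with 25 CACN, 14 SCN and 92 KCN genes, and 3 further genes on the sex chromosomes were left out. The name voltage-gated is narrower than the rule. Of the 131 genes, 34 are KCNJ, KCNK or KCNN genes, whose channels pass potassium without being opened by voltage, and 97 remain without them.

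Histone methylation was profiled by ChIP-seq in mdig KO cells and WT cells of BEAS-2B, an immortalized line of human bronchial epithelial cells. KO cells came from colonies in which CRISPR-Cas9 had removed mdig (also called mina53), a JmjC domain protein, with a guide to the third exon. WT cells came from colonies that went through the same transfection and blasticidin selection but kept mdig, and both were grown with blasticidin. There was 1 library per genotype for each of H3K9me3, H3K27me3, H3K4me3 and H3R8me2a, and the sources do not name the colonies that gave the chromatin. With 1 library per group no difference below has a replicate or a test. The values are lengths of SICER islands, stretches of the genome enriched for the mark, which carry no height, score or depth. In KO cells the islands covered 3.69 times the WT length for H3K9me3, 1.33 times for H3K27me3, 1.15 times for H3K4me3 and 1.61 times for H3R8me2a. More chromatin with the mark and more permissive calling cannot be told apart from these values. Islands come from a whole culture, so a mark on few cells and a weak mark on all cells cannot be told apart either. The bronchial epithelial markers KRT8, KRT18, EPCAM, CDH1 and ITGB4 had H3K4me3 at their starts in both genotypes and KRT5 and KRT19 had none. The mesenchymal markers VIM, FN1 and COL1A1 had it in both genotypes as well. Of 4 neuron markers, SNAP25 had it in KO, and SNAP25 and STMN2 had it in WT, with H3K27me3 at 3 of the 4 starts in KO and 2 in WT. None of 5 muscle and none of 3 leukocyte markers had H3K4me3 in either.

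Voltage-gated cation channels open their pore when the membrane potential shifts, and they carry the electrical signals of nerve, heart and muscle cells. Each is built around a pore subunit, to which auxiliary subunits add trafficking and gating control. The genes counted here as voltage-gated pores are CACNA1, SCNxA and, for potassium, KCNA, KCNB, KCNC, KCND, KCNF, KCNG, KCNH, KCNQ, KCNS and KCNV. In airway epithelium the potassium channels KCNQ1 with KCNE3, KCNMA1 and KCNN4 keep the driving force for chloride secretion, whereas many other members are best known from nerve, heart and muscle. H3K4me3 marks active promoters, H3K27me3 is the mark of Polycomb repression, H3K9me3 is the mark of heterochromatin, and H3R8me2a is an asymmetric dimethylation of an arginine. Genes that carry both H3K4me3 and H3K27me3 at the start are often called bivalent.

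Channel genes were long. Their median length was 68.7 kb, against 27.6 kb over all autosomal protein-coding genes, and 57 of them (43.5%) exceeded 100 kb, against 18.2% of all genes. The shortest was KCNA10, a Kv1 potassium pore gene of 1.96 kb, and the longest was KCNIP4, a potassium channel interacting protein of 1220 kb. With all genes split into 4 classes of equal size by length, 15, 31, 22 and 63 channel genes fell into the classes that end at 9.81, 27.6, 71.6 and 2474 kb. The longest class therefore held 48.1% of them. For each gene the islands were summed over the body and 5 kb upstream, so a long gene can collect more bases, and gains of H3K9me3 and H3K27me3 are given by length class.

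H3K9me3 islands were more extensive over channel genes in KO cells. They covered 10.4% of the pooled channel regions in KO cells and 1.68% in WT cells, against 7.35% in KO and 2.18% in WT over all genes. The pooled KO share rests much on few genes. Of 2.19 Mb covered in KO, CACNA1C, KCNQ1 and CACNA1B held 384, 253 and 184 kb. Of the 131 genes, 81 had more covered bases in KO, 3 had fewer and 47 had no H3K9me3 island in either library. A gain was counted where KO had at least 2 times the WT bases and at least 1 kb more, and a loss in the opposite case. By this rule of size 69 channel genes (52.7%) had a gain, where the rule called 28% of all genes, and 52 of the 69 had no H3K9me3 island in WT. Genes with no H3K9me3 island in either library could have no gain. They made up 47 of 131 channel genes and 11938 of all 19229 genes. The shares of gains therefore also reflect how many genes carried an island. Losses numbered 2, where the rule called 0.884% of all genes. KCNN2, a calcium-activated potassium channel, had 0 kb in KO and 7.2 kb in WT, and KCNH7, of the ether-a-go-go type, had 0 kb in KO and 1.4 kb in WT. With both libraries scaled to the same total covered length the split was 53 gains and 13 losses, against 19.7% and 8.35% of all genes.

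Within length classes the share of H3K9me3 gains as deposited was above the background at every length, with small counts in the shorter classes. Gains numbered 6 of 15 in the shortest class, where 15% of all genes had one, and 8 of 31 in the next, where 18.5% did. The count was 15 of 22 in the third class (68.2%), against 28.5%, and 40 of 63 in the longest (63.5%), against 49.9%. The excess over genes of like length was thus smallest in percentage points in the second class and largest in the third. Genes with no H3K9me3 island in either library could not gain. By class they made up 8 of 15, 20 of 31, 5 of 22 and 14 of 63 channel genes. Over all genes they made up 3933 of 4806, 3591 of 4808, 2949 of 4807 and 1465 of 4808. Gains among genes with an island were not compared by class. After scaling the longest class had 30 gains and 8 losses among channel genes, and no scaled background by class was computed. Across the 131 genes, length went with the difference in covered kb (Spearman's rho 0.33) and hardly with the difference in percent of the region (rho 0.025). This is a description across genes of the same libraries, which are not independent replicates.

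**Figure D1:**
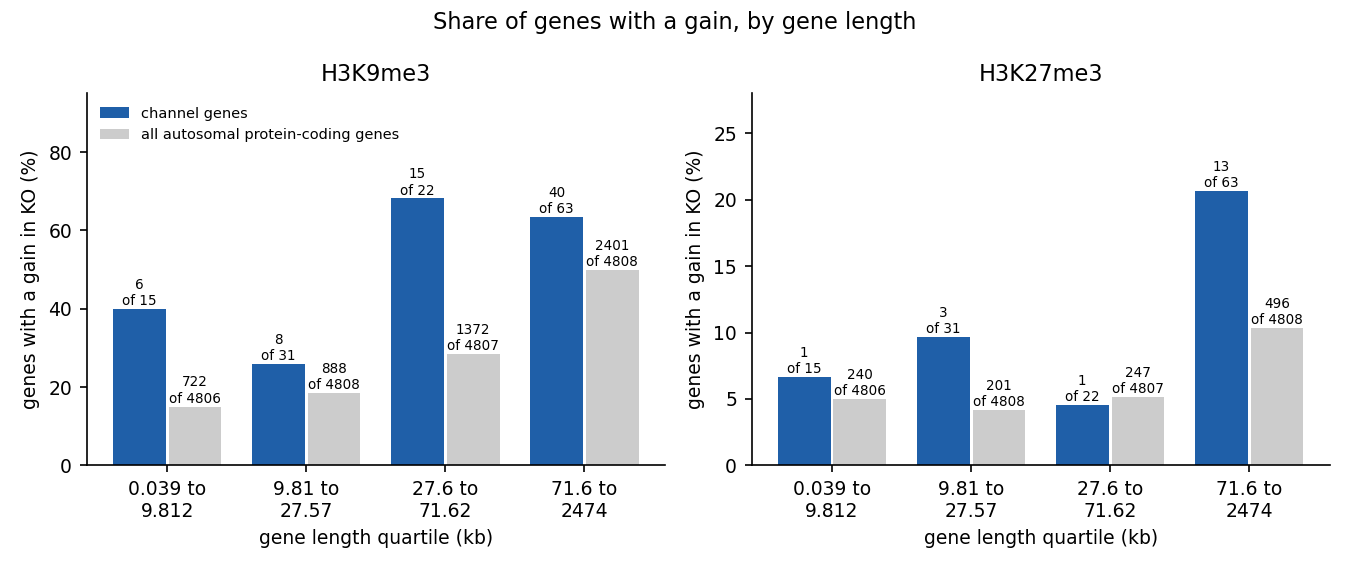
Percent of genes with a gain of H3K9me3 (left) or H3K27me3 (right) in KO cells, in 4 classes of gene length in kb, for channel genes (blue) and all autosomal protein-coding genes (gray), with the counts above the bars. For H3K9me3 the blue bars reach 68.2% and 63.5% in the third and the longest class, against 28.5% and 49.9% of all genes.

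The comparison with other genes was repeated within genes of like length and like start. Among the longest genes with H3K27me3 within 2 kb of the start in WT, H3K9me3 gains were near the background, at 24 of 39 channel genes (61.5%) and 61.1% of all genes. Without H3K27me3 at the start, gains were found in 16 of 24 long channel genes (66.7%) and in 46.8% of all long genes. In the third length class they were found in 10 of 16 channel genes with the mark (62.5%, against 50.9% of all genes) and in 5 of 6 without it (83.3%, against 24.2%). In the second class the shares were near the background, at 6 of 16 with the mark (37.5%, against 35.4%) and 2 of 15 without it (13.3%, against 14.6%). In the shortest class, 6 of 12 channel genes with H3K27me3 at the start had a gain (50%, against 30.9%), and none of 3 without it did.

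The gained bases were concentrated in few genes, and 5 of them held 45.3% of the 1848 kb gained. CACNA1C (chr12:2079938-2807116), the pore of the L-type calcium channel of heart and smooth muscle, had 384 kb covered in KO and 15.2 kb in WT. KCNQ1 (chr11:2465884-2870335), the potassium pore of the cardiac slow delayed current and of secretory epithelia, had 253 kb in KO and 66.6 kb in WT. CACNA1B (chr9:140772234-141019076), the N-type calcium channel of nerve terminals, had 184 kb in KO and 28 kb in WT. Each of the 3 genes was thus covered over more than its WT islands alone, at 52.4%, 61.8% and 73.2% of the region in KO. CACNA2D4, an alpha2delta subunit of the retina, had 75.03 kb in KO and 3.8 kb in WT, and KCNIP3, a calcium sensor that binds Kv4 channels, had 57.5 kb in KO and 3.13 kb in WT. After scaling to the same total length KCNQ1 and CACNA1B no longer met the rule, and CACNA1C, CACNA2D4 and KCNIP3 did.

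By share of the region a small gene led. KCNK16, a K2P leak channel gene of pancreas, had 89.5% of its region covered in KO and none in WT. KCNK16 and its neighbor KCNK17 overlap in their regions and shared an H3K9me3 island in KO, so they do not count as independent observations. The genes nearest to the threshold in bases were SCN10A and KCNMB4, each with 1 kb in KO and none in WT, on the inside, and KCNJ3, with 0.8 kb in KO and none in WT, and KCNK12, with 4.77 kb in KO and 2.57 kb in WT, on the outside.

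**Figure D2:**
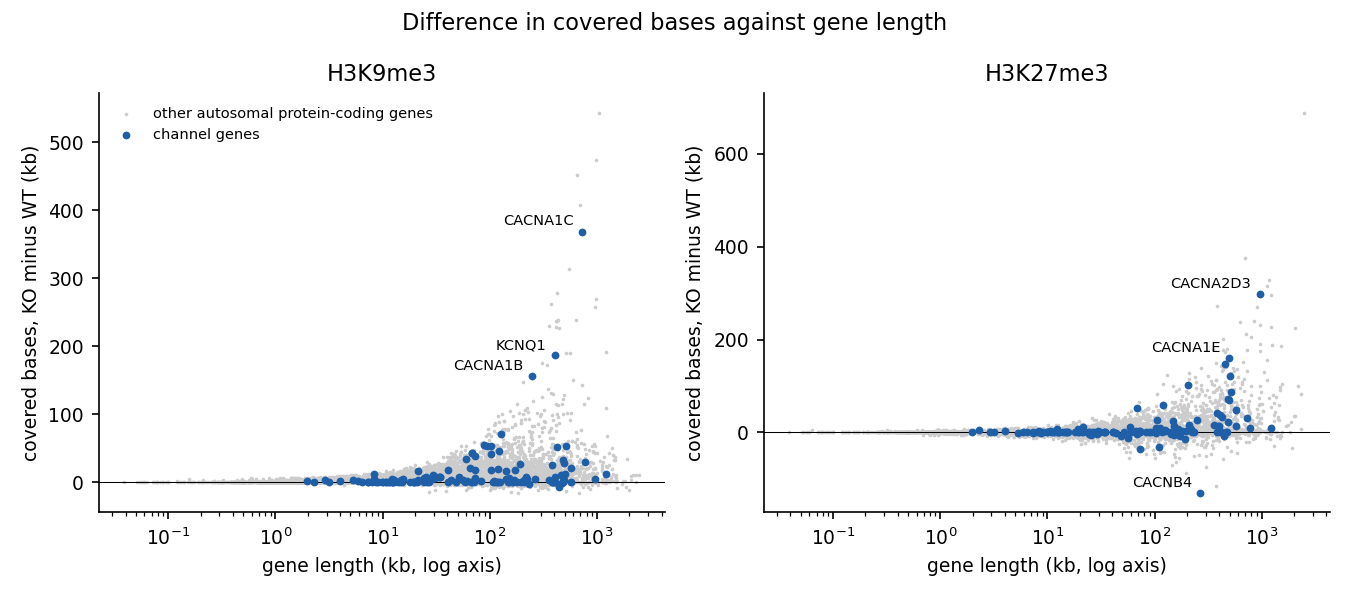
Covered bases in KO minus WT (kb) against gene length (kb, log axis) for channel genes (blue) and other autosomal protein-coding genes (gray), H3K9me3 left and H3K27me3 right. CACNA1C (384 kb in KO, 15.2 kb in WT) lies highest among channel genes for H3K9me3, and for H3K27me3 CACNA2D3 lies highest and CACNB4 lowest.

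New H3K9me3 lay on chromatin that already carried H3K27me3 in WT more than the regions as a whole did. Of 1.86 Mb covered by H3K9me3 in KO and not in WT, 62.7% was under a WT H3K27me3 island, whereas 27.4% of all channel region bases were, a ratio of 2.29. Over all genes the shares were 28.9% and 9.53%, a ratio of 3.04, so the ratio was not higher in channel genes although both shares were. Without CACNA1C, KCNQ1 and CACNA1B the channel shares were 52.7% and 24.7%. The new bases of CACNA1C (370 kb) fell on WT H3K27me3 islands for 77.8%, those of CACNA1B for 87.3% and those of KCNK16 for 100%. KCNIP3, with 54.4 kb of new H3K9me3, had no H3K27me3 island in WT at all. By position, introns held 87.9% of the new bases, exons 9.99% and the upstream 5 kb 2.10%, in regions made up of introns for 91.8%, exons for 5.12% and upstream sequence for 3.10%.

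CACNA1C shows how the islands were arranged. In KO cells 39 H3K9me3 islands lay along the gene, the longest of 39.6 kb, and in WT cells there were 3, the longest of 6.6 kb. H3K27me3 covered 514 kb of the region in 9 islands in KO, the longest of 305 kb, and 483 kb in 15 islands in WT, the longest of 173.8 kb. The H3K4me3 bases were 7.4 kb in KO and 11 kb in WT, in 2 islands in each, none within 2 kb of the annotated start. H3R8me2a had 1 island in KO and 3 in WT, with 7.2 kb covered in KO and 18.4 kb in WT.

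**Figure D3:**
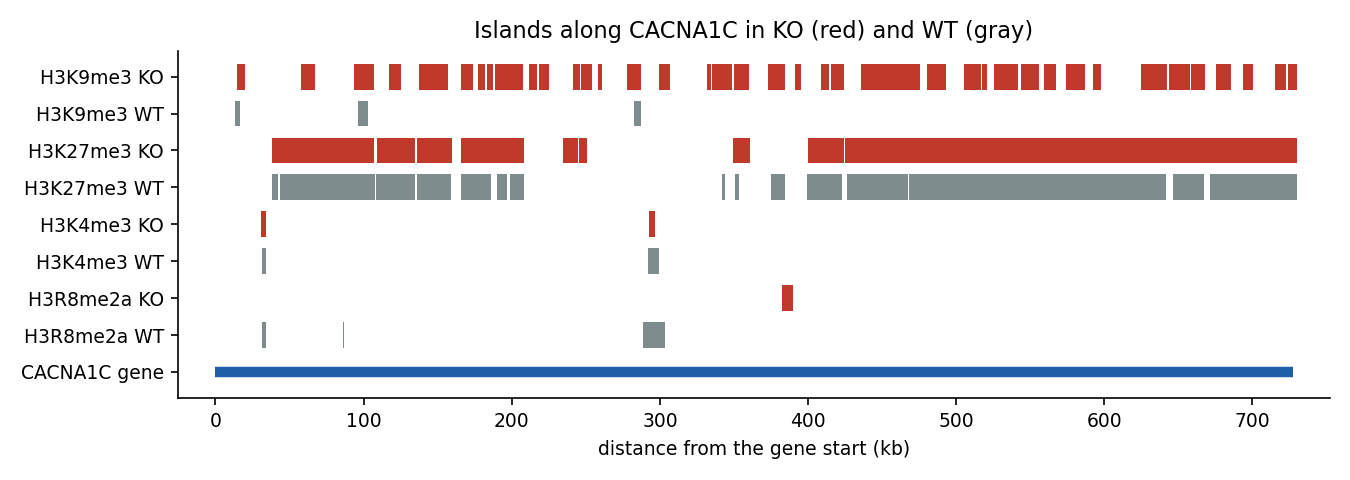
Islands of the 4 marks along CACNA1C in KO (red) and WT (gray), as distance from the gene start in kb, with the gene as a blue bar. The 39 H3K9me3 islands of KO are spread over the gene, 3 were called in WT, and 77.8% of the new H3K9me3 bases lie on WT H3K27me3 islands.

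H3K27me3 was a common mark of channel genes in both genotypes. It covered 34.3% of the pooled channel regions in KO and 27.5% in WT, against 11.8% in KO and 9.38% in WT over all genes. An H3K27me3 island touched the region of 102 channel genes in KO (77.9%) and 98 in WT (74.8%), against 28.2% and 27.6% of all genes. More than 90% of the region was covered in 27 genes in KO and 20 in WT, and 10 genes were covered whole in both, among them KCNA10, KCNK16, KCNK17, KCNH2, KCNT1 and SCN2B. A gene covered whole in WT could not gain. SCN3A, KCNJ13 and KCNE2 had no island of any mark in any library.

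Gains of H3K27me3 were found in 18 channel genes (13.7%), where the rule called 6.16% of all genes, and losses in 5 (3.82%), where it called 3.39%. By length class the gains numbered 1 of 15, 3 of 31, 1 of 22 and 13 of 63, where 4.99%, 4.18%, 5.14% and 10.3% of all genes of these classes had one. In the first 3 classes a count of 1 to 3 is too small to read against the background, and in the longest the share was 20.6%. Genes with no H3K27me3 island in either library could have no gain. They made up 29 of 131 channel genes and 13298 of all 19229 genes, and 10 of 63 and 3043 of 4808 in the longest class. The higher shares of gains therefore do not show more gains among genes that carry the mark. Scaled to the same total length there were 12 gains and 5 losses, against 4.73% and 4.09% of all genes, and the median difference in percent covered changed sign, with 0.60 percentage points as deposited and -0.63 after scaling.

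The largest H3K27me3 gain was in CACNA2D3 (chr3:54156579-55108584), an alpha2delta subunit, with 512 kb in KO and 214 kb in WT, or 53.5% and 22.3% of the region. CACNA1E, the R-type calcium pore, had 308 kb in KO and 149 kb in WT. KCNH1, an ether-a-go-go potassium pore, had 226 kb in KO and 78.5 kb in WT. WT cells had H3K27me3 over each of the 3 genes as well. SCN11A, a sodium channel of pain-sensing neurons, had 135 kb in KO and 33.1 kb in WT, and CACNA2D1, the alpha2delta subunit that binds gabapentin, 91.1 kb in KO and 20.5 kb in WT. By share, CACNG4 led with 83.2% in KO and 11.7% in WT, followed by KCNF1, an electrically silent Kv subunit, with 89.8% in KO and 24.0% in WT. After scaling CACNA2D3 and CACNA1E no longer met the rule.

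The 5 losses of H3K27me3 included CACNB4, CACNA1S, KCNAB2 and KCNMB4, and all 5 genes had a gain of H3K9me3 as deposited, 4 of them (not KCNMB4) after scaling. Over all genes, 255 of 651 with a loss of H3K27me3 had a gain of H3K9me3 as deposited, and 231 of 786 after scaling. KCNMB4 was at the limit of the rule, with 1 kb of H3K9me3 in KO and none in WT. CACNB4 (chr2:152689285-152955681), a beta subunit of brain calcium channels, had 15.2 kb of H3K27me3 in 2 islands in KO and 146 kb in 14 islands in WT, while its H3K9me3 was 5 kb in KO and none in WT. CACNA1S, the calcium channel and voltage sensor of skeletal muscle, had 18.4 kb of H3K27me3 in KO and 53.4 kb in WT, and 18.4 kb of H3K9me3 in KO and none in WT. KCNAB2, a beta subunit of Kv1 channels, had 11.3 kb of H3K27me3 in KO and 42.1 kb in WT, and 1.6 kb of H3K9me3 in KO and none in WT. The bases gained for H3K9me3 were thus fewer than those lost for H3K27me3 in each of these genes. Over all genes, a gain of H3K9me3 went with a loss of H3K27me3 in 1.33%, and with a gain of H3K27me3 in 2.44%. In channel genes the shares were 3.82% and 6.87% (5 and 9 genes). After scaling they were 3.05% and 3.05% (4 genes each), against 1.20% and 1.29% of all genes. The 4 genes with gains of both marks after scaling were CACNA2D1, KCNG4, KCNH1 and SCN11A, and those that dropped out were CACNA1E, CACNA2D3, CACNG4, SCN10A and the airway potassium channel KCNMA1.

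**Figure D4:**
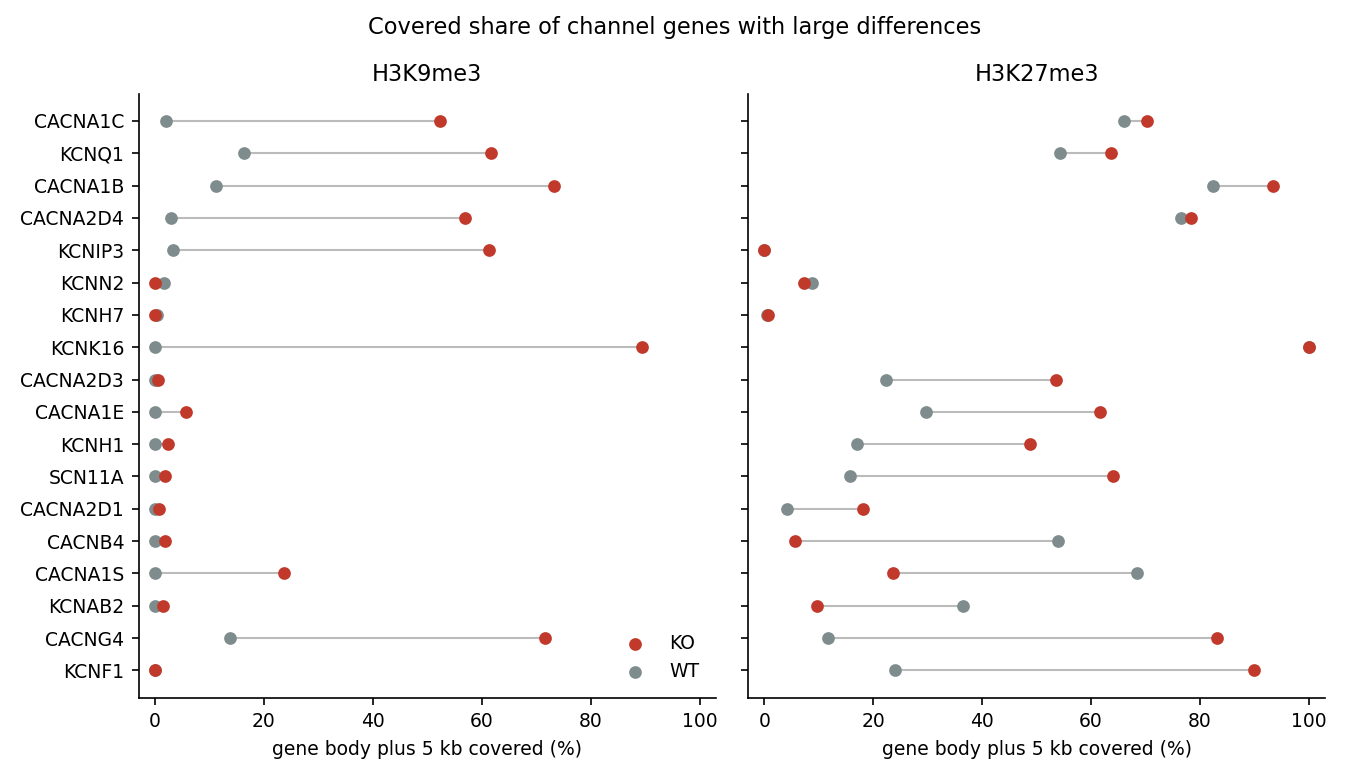
Percent of the body and 5 kb upstream covered by H3K9me3 (left) and H3K27me3 (right) in KO (red) and WT (gray) for channel genes with large differences in either mark, joined by a line. CACNA1C, KCNQ1, CACNA1B and CACNA2D4 differ in H3K9me3 far more than in H3K27me3, and CACNB4 (5.60% in KO, 53.9% in WT) lies lower in KO for H3K27me3.

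The transcription start, taken as 2 kb on both sides, had H3K27me3 calls at nearly the same channel genes in both genotypes. H3K27me3 lay at 85 channel gene starts in KO (64.9%) and 83 in WT (63.4%), against 21.4% and 20.4% of all genes. It was at the start in KO alone in 2 genes, where this held for 2.9% of all genes, and in WT alone in none, where it held for 1.88%. The 2 genes were KCNG4, an electrically silent Kv subunit, with 3.58 kb of the window covered in KO, and CACNG1, the gamma subunit of the skeletal muscle calcium channel, with 3.93 kb. H3K4me3 was at 50 starts in KO and 50 in WT (38.2%), against 65.3% in KO and 65.6% in WT over all genes. It was in both genotypes at 46. H3K4me3 was in KO alone at 4 and in WT alone at 4 (3.05% each), where this held for 1.25% and 1.53% of all genes. The 8 differences in H3K4me3 call concerned single genes described with their starts. With the start of the Ensembl canonical transcript instead, KCNIP1 and KCNH5 differed as well. KCNIP1 had 4.00 kb of H3K4me3 there in KO and none in WT, and KCNH5 had none in KO and 2.2 kb in WT. H3K9me3 was at 28 starts in KO and 5 in WT. It was in KO alone at 23 (17.6%), where this held for 8.45% of all genes, and in WT alone at none, where it held for 0.12%.

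H3K4me3 and H3K27me3 at the start were then combined. H3K4me3 alone was found at 22 channel genes in KO (16.8%) and 19 in WT (14.5%), against 57.0% of all genes in each. Both marks were found at 28 in KO (21.4%) and 31 in WT (23.7%), against 8.34% and 8.62% of all genes. H3K27me3 alone was found at 57 in KO (43.5%) and 52 in WT (39.7%), against 13.1% and 11.8%. Neither mark was found at 24 in KO (18.3%) and 29 in WT (22.1%), near the 21.6% and 22.6% of all genes. All 19 genes with H3K4me3 alone in WT were so in KO, among them KCNMA1 and KCNN4, the channels of airway epithelium with active-type starts. KCNQ1 had H3K27me3 alone and KCNE3, its secretory partner, neither mark in both genotypes. Among the 52 genes with H3K27me3 alone in WT, 19 (36.5%) had H3K9me3 at the start in KO, against 29.1% of all genes in that state, and none of the 19 with H3K4me3 alone did, against 6.63%. All 8 KCNA genes, Kv1 potassium pores, had H3K27me3 alone in both genotypes. H3K9me3 was at 6 of their starts in KO (KCNA1, KCNA3, KCNA5, KCNA6, KCNA7 and KCNA10) and at 1 in WT (KCNA6).

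**Figure D5:**
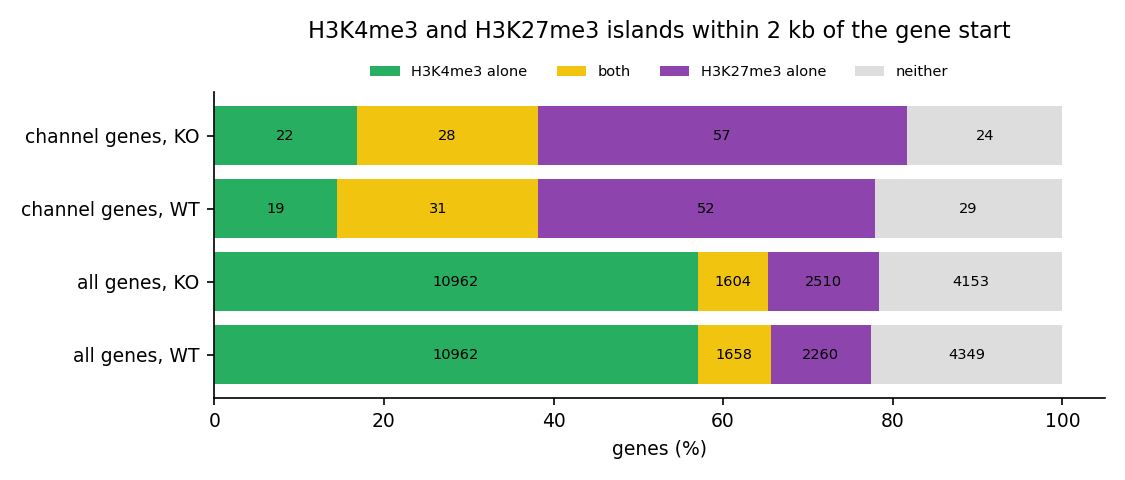
Percent of genes with an H3K4me3 island alone, both H3K4me3 and H3K27me3, H3K27me3 alone or neither within 2 kb of the start, with counts in the bars, for channel genes and all autosomal protein-coding genes, KO above WT. Channel genes have H3K27me3 alone at 57 starts in KO and 52 in WT, and all genes have H3K4me3 alone at 10962 starts in each.

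The 4 starts with H3K4me3 in WT alone kept H3K27me3 in KO. They belonged to KCND3, a Kv4 pore of the transient outward current (0 kb of H3K4me3 in the window in KO, 3.09 kb in WT), KCNH1 (0 kb in KO, 1.8 kb in WT), KCNK3, the acid-sensitive leak channel TASK-1 (0 kb in KO, 1.4 kb in WT) and KCNG2, an electrically silent Kv subunit (0 kb in KO, 1.8 kb in WT). Except in KCND3, these were islands of under 2 kb in WT. No other annotated coding start of KCND3 or KCNH1 had H3K4me3 in KO, and KCNK3 and KCNG2 have only 1 coding start each. All 4 starts were rich in CG dinucleotides, the feature of CpG island promoters, with 53, 29, 39 and 35 in the 300 bases from 250 before to 50 after the start. The 150 bases just before the start in GRCh37, on the strand of the gene and with each CG in capitals, are shown because they are the promoters at which H3K4me3 was called in WT alone.
KCND3, chr1:112532291-112532440, minus strand: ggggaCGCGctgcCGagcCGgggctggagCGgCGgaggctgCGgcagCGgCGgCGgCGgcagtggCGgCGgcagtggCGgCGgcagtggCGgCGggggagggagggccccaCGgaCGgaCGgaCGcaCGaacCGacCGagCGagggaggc
KCNH1, chr1:211307508-211307657, minus strand: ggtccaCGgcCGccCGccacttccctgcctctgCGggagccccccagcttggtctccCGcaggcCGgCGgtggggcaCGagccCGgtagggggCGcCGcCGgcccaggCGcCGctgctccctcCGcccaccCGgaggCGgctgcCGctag
KCNK3, chr2:26915440-26915589, plus strand: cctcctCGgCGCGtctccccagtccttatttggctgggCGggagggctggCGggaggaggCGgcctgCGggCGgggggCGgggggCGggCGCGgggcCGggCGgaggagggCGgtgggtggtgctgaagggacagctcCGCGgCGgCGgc
KCNG2, chr18:77557788-77557937, plus strand: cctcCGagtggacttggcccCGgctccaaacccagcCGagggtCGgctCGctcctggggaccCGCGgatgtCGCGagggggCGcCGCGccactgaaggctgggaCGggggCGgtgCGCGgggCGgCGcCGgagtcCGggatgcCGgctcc

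The 4 starts with H3K4me3 in KO alone were mixed in state and in CG content. KCNIP4 (2.4 kb in KO, 0 kb in WT), KCNS1, an electrically silent Kv subunit (3.03 kb in KO, 0 kb in WT), and KCNE4, an inhibitory beta subunit of KCNQ1 and Kv1 channels (3.29 kb in KO, 0 kb in WT), had neither mark in WT and H3K4me3 alone in KO. KCNN3, the small-conductance calcium-activated channel SK3, had H3K27me3 in both genotypes and H3K4me3 in KO (3.44 kb in KO, 0 kb in WT). No other coding start of KCNIP4, KCNS1 or KCNN3 had H3K4me3 in WT, and KCNE4 has only 1 coding start. Of these starts KCNIP4 had 47 CG in 300 bases, and KCNS1, KCNN3 and KCNE4 had 17, 13 and 10, where the median was 17 over channel genes and 18 over all genes. The same 150 bases before the start are shown for 3 of them, with each CG in capitals, for comparison with those above.
KCNIP4, chr4:21950396-21950545, minus strand: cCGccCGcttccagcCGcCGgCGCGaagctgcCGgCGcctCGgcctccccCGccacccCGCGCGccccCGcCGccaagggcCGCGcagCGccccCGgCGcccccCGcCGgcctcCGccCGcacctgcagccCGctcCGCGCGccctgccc
KCNN3, chr1:154842758-154842907, minus strand: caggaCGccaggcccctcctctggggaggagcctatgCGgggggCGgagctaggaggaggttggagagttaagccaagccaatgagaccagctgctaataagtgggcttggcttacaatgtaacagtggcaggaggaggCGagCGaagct
KCNE4, chr2:223916758-223916907, plus strand: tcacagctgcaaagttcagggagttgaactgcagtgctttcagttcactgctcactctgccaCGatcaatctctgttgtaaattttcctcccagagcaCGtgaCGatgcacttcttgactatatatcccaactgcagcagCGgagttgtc
In these windows KCND3, KCNG2, KCNH1 and KCNK3 held 25, 21, 18 and 19 CG, and KCNIP4, KCNN3 and KCNE4 held 28, 5 and 4. The sequence is that of the reference, and of the 3 starts shown that were marked in KO alone only KCNIP4 lay in the range of those marked in WT alone or above it.

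CG content went with the state of the start in WT. A start was counted as CpG-rich with an observed to expected CG ratio over 0.6 and over 50% GC, which held for 50.4% of channel genes and 55.2% of all genes. Of the starts with H3K4me3 in KO alone, KCNIP4 and KCNS1 met this rule and KCNN3 and KCNE4 did not. Among channel genes it held for 87.1% of those with both marks, 53.8% with H3K27me3 alone, 47.4% with H3K4me3 alone and 6.90% with neither. Over all genes with H3K27me3 alone it held for 32.7%, and over those with H3K4me3 alone for 74.6%. Channel genes with H3K9me3 at the start in KO were CpG-rich in 50%, and those without it in 50.5%.

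Many neuronal channel genes are known targets of REST, a repressor that binds the RE1 element outside neurons. The letters CAGCACC, any 2 bases and then GGACAG, a core of that element, were searched on both strands within 2 kb of the start. They were found in 5 of 131 channel genes (3.82%) and in 100 of 19229 genes (0.52%). A match is a description of the letters and not of binding. The 21 bases around each match in GRCh37, on the strand of the match and with the core in capitals, are shown because the same letters recur in a calcium, a sodium and 3 potassium channel genes.
CACNA1B, chr9:140773240-140773260, minus strand: cgtCAGCACCGCGGACAGcgc
KCNH4, chr17:40332302-40332322, minus strand: gttCAGCACCTTGGACAGcca
KCNK12, chr2:47798604-47798624, plus strand: cgtCAGCACCGCGGACAGcgc
KCNV2, chr9:2718232-2718252, minus strand: cagCAGCACCCCGGACAGgta
SCN3B, chr11:123524775-123524795, plus strand: gctCAGCACCACGGACAGtcg
The cores of CACNA1B and KCNK12, a K2P subunit, lay at 1009 and -497 relative to the start and were identical over the 21 bases. CACNA1B and KCNH4, an ether-a-go-go pore, had H3K27me3 alone at the start in both genotypes, KCNK12 and SCN3B, a sodium channel beta subunit, had both marks, and KCNV2, a silent Kv subunit of photoreceptors, had neither. REST itself had H3K4me3 at 8.4 kb in KO and 6.2 kb in WT and no H3K9me3 or H3K27me3 island in either.

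The counts by role below stand against 28% of all genes with an H3K9me3 gain as deposited and 19.7% after scaling. These shares do not account for length. In the longest class 49.9% of all genes had a gain as deposited. The calcium pores and alpha2delta genes had median lengths of 247 and 320 kb, so role and length cannot be told apart in their counts. For H3K27me3 the rule called gains in 6.16% and losses in 3.39% of all genes. The calcium channel pores had H3K9me3 gains in 8 of 9 genes, the exception being the T-type gene CACNA1G with no H3K9me3 island in either library. H3K9me3 covered 27.9% of their pooled regions in KO and 1.86% in WT, and 6 of the 9 genes had a gain after scaling. All 4 alpha2delta genes had a gain, also after scaling, with 5.74% covered in KO and 0.22% in WT. The beta subunit genes, which bring the pore to the membrane, had 2 gains of 4 and 1.81% covered in KO against none in WT, and all 4 had H3K4me3 at the start in both genotypes. Among the gamma genes, 4 of 8 had a gain, with 27.1% covered in KO and 8.77% in WT, but after scaling there were 2 gains and 2 losses.

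Among the sodium channel pores, H3K27me3 gains were found in 6 of 10 (SCN1A, SCN2A, SCN7A, SCN9A, SCN10A and SCN11A), 4 of them after scaling. No sodium pore gene had a loss of this mark. The rule called gains in 6.16% of all genes and in 10.3% of the longest class, and these pores had a median length of 173 kb. SCN2A had 2.8 kb in KO and none in WT, and SCN9A had 6.91 kb in KO and 3.2 kb in WT. H3K27me3 covered 16.8% of the sodium pore regions in KO and 4.89% in WT. The calcium pores had 1 gain and 1 loss of this mark, with 71.0% of their regions covered in KO and 60.2% in WT, and a gene covered over 50% in WT cannot meet a factor of 2, so the counts of the pore groups are not comparable. H3K9me3 gains numbered 4 of 10, with 4.99% of the regions covered in KO and 0.52% in WT, and after scaling there were 3 gains and 1 loss. The 4 sodium beta genes had no H3K9me3 island, with H3K27me3 at 83.2% in KO and 82.1% in WT.

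Among voltage-gated potassium pores, 23 of 39 had an H3K9me3 gain and 1 a loss, or 19 gains and 4 losses after scaling, with 8.74% covered in KO and 1.93% in WT, and 12 had H3K9me3 at the start in KO and 2 in WT. They had 6 gains and 1 loss of H3K27me3 (4 and 1 after scaling), where the rule called 6.16% and 3.39% of all genes. They also had 5 of the 7 losses of H3K4me3, which the rule called in 1.99% of all genes. The auxiliary potassium genes, of the KCNAB, KCNE and KCNIP kinds, had 8 H3K9me3 gains of 11 (6 after scaling), among them KCNE3, with 3.4 kb in KO and none in WT, of which 3.03 kb lay in the start window. The calcium- or sodium-activated genes had 7 gains of 12 and 1 loss, but 3 gains and 2 losses after scaling. KCNMA1, the BK channel, had 48 kb in KO and 17.8 kb in WT, and KCNN4, the intermediate-conductance channel, had no island of H3K9me3 or H3K27me3 in either.

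The genes whose channels are not opened by voltage had fewer gains. Inward rectifiers (KCNJ) had an H3K9me3 gain in 5 of 15 and K2P leak channels (KCNK) in 4 of 15, and neither group had a gain or a loss of H3K27me3. Over KCNJ, KCNK and KCNN together, H3K9me3 gains were found in 10 of 34, near the background of 28%, and in 59 of the other 97. Their median length was 35.8 kb, against 93.3 kb for the other 97, so role and length cannot be told apart in this count. The pooled share covered by H3K9me3 was 8.87% in KO and 2.66% in WT for the 34 genes, and 10.6% in KO and 1.53% in WT for the 97.

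Several channel genes lie next to each other, and their values are not independent. The sodium channel cluster on chromosome 2 (SCN1A, SCN2A, SCN3A, SCN7A and SCN9A, chr2:165944036-167472992) had 102 kb of H3K27me3 in KO and 19.6 kb in WT, in 1529 kb, with 2.6 kb of H3K9me3 in KO and none in WT. SCN10A, a sodium channel of sensory neurons next to SCN11A on chromosome 3, had 71.3 kb of H3K27me3 in KO and 12.8 kb in WT. The Kv1 cluster on chromosome 12 (KCNA1, KCNA5 and KCNA6) was under H3K27me3 for 86.8% in KO and 64.9% in WT, and had 23.4 kb of H3K9me3 in KO and 3.4 kb in WT.

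The gamma subunit clusters differed from each other. On chromosome 17 (CACNG1, CACNG4 and CACNG5, chr17:64826235-65052913) H3K9me3 covered 164 kb in KO (72.1%) and 42.6 kb in WT (18.8%), and H3K27me3 128 kb in KO and 60.8 kb in WT. On chromosome 19 (CACNG6, CACNG7 and CACNG8) H3K9me3 covered 13.2 kb in KO and none in WT, and H3K27me3 68.5 kb in KO and 66.7 kb in WT. CACNG7 had 8.40 kb of the H3K9me3 in KO, and CACNG6 and CACNG8 had none. The chromosome 17 genes thus lay in a block that had H3K9me3 in WT as well. In all, 5 pairs of channel genes overlap in their regions, and 34 channel genes overlap another protein-coding gene, whose islands cannot be told apart from their own.

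H3K9me3 at the start in WT was found at 5 channel genes, all of which had it in KO. The covered length in the window was 4.00 kb in KO and 0.13 kb in WT at KCNIP3, 4.00 kb in both at CACNG1, and 3.3 kb in KO and 2.5 kb in WT at KCNA6. It was 2.51 kb in KO and 2.31 kb in WT at KCNV2, and 0.92 kb in KO and 2.32 kb in WT at KCNMB2, a beta subunit of the BK channel. Only KCNMB2 among the 5 had less in KO.

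H3K4me3 over the body and upstream region had 16 gains among channel genes (12.2%), where the rule called 4.19% of all genes, and 7 losses (5.34%), where it called 1.99%. Scaled to the same total length there were 10 gains and 9 losses, where the rule called 2.79% and 2.49% of all genes. KCNJ10, a glial and renal inward rectifier, had 14.8 kb in KO and 6.8 kb in WT, KCNJ5, a G-protein-gated rectifier, 12 kb in KO and 4 kb in WT, CACNA1G 14.5 kb in KO and 6.6 kb in WT, and KCNN3 7.8 kb in KO and none in WT. By share, KCNK4, a mechanosensitive leak channel, led with 76.7% in KO and 33.0% in WT, and KCNS1 had 21.5% in KO and none in WT. Of these genes KCNJ10 and CACNA1G no longer met the rule after scaling. The losses were all of 4 kb or less. KCNH6 had 0.54 kb in KO and 2.74 kb in WT. The other 6 had none in KO, against 4 kb in WT for KCND3, 2.2 kb for KCNH5, 1.8 kb for KCNH1 and for KCNG2, 1.4 kb for KCNK3 and 1.17 kb for KCNJ14. Of the 7 genes, 5 encode voltage-gated potassium pores or silent Kv subunits.

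H3R8me2a had 23 gains (17.6%), where the rule called 20.4% of all genes, and 7 losses (5.34%), where it called 8.28%. Neither share of all members stood above the background. Genes with no H3R8me2a island in either library could have neither call. They made up 90 of 131 channel genes and 9503 of all 19229 genes. The shares therefore do not show fewer gains or losses among genes that carry H3R8me2a. At the start it was in KO alone at 14 genes (10.7%), where this held for 13.4% of all genes, and in WT alone at 1, KCNJ4, where it held for 5.51%. Some single genes nevertheless had long domains in 1 genotype. CACNA2D2, an alpha2delta subunit strong in lung and cerebellum, had 108 kb in KO and none in WT, and CACNA1S had 54.4 kb in KO and none in WT. KCNQ1 had 87.8 kb in KO and 39 kb in WT, and KCNT1, a sodium-activated potassium channel, 36.4 kb in KO and 1.37 kb in WT. KCNH3 was covered whole (24.3 kb) in KO and not at all in WT, and KCNK7 for 82.8% in KO and none in WT. Of these genes only KCNQ1 had a WT domain of over 2 kb. Losses were led by KCNMA1, with 12.8 kb in KO and 55 kb in WT, CACNA1I, a T-type calcium pore, with 8.6 kb in KO and 48.0 kb in WT, and KCNIP1, with none in KO and 31.8 kb in WT. KCNJ4, an inward rectifier, had none in KO and 6.4 kb in WT. The airway channels did not share a direction for this mark. KCNN4 had 8.8 kb in KO and none in WT, and KCNE3 had no H3R8me2a island in either.

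CACNA1S differed in 3 of the 4 marks. Beside the lower H3K27me3 in KO, H3K9me3 and H3R8me2a islands lay over it in KO and none did in WT, while H3K4me3 was 4 kb in KO and 4.8 kb in WT.

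A list of 35 further genes was read, all of which were found. It held genes that act with these channels, other channels such as HCN4, HVCN1 and TPCN1, and REST with RCOR1. The 35 genes had 17 gains and 0 losses of H3K9me3 (no test was run), where the rule called 28% and 0.884% of all genes. For H3K27me3 they had 7 gains and 3 losses, where it called 6.16% and 3.39%. Many of the 35 fell into the longest class, where 49.9% of all genes gained H3K9me3 and 10.3% gained H3K27me3. The counts of this list were not split by length or scaled. There were 2 gains and 2 losses of H3K4me3, against 4.19% and 1.99% of all genes, and 9 gains and 3 losses of H3R8me2a, against 20.4% and 8.28%. DPP6, an auxiliary subunit of Kv4 channels, had 73.0 kb of H3K9me3 in KO and 5.4 kb in WT, and 373 kb of H3K27me3 in KO and 184 kb in WT. RYR1, the calcium release channel that CACNA1S opens in skeletal muscle, had 60.6 kb of H3K9me3 in KO and 4.2 kb in WT. RYR2, its cardiac form, had 41.6 kb of H3K9me3 in KO and none in WT, and 172 kb of H3K27me3 in KO and 71.7 kb in WT. FGF12, a cytosolic factor that binds sodium channels, had no H3K9me3 and 369 kb of H3K27me3 in KO against 132 kb in WT. The 3 losses of H3K27me3 were in HCN4, the pacemaker channel of the heart, with 3.8 kb in KO and 15.5 kb in WT, in HVCN1, a voltage-gated proton channel, with 7.2 kb in KO and 17.4 kb in WT, and in ANK2, an ankyrin adaptor, with none in KO and 3 kb in WT.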

How the data were processed

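ChIP-seq of 4 marks in mdig KO and WT BEAS-2B cells gave 9 samples, of which the WT input was not analysed here. The authors aligned 75-nt reads to hg19 (GRCh37) with BWA (version not given in the sources used here), lengthened reads to 200 bp and sampled tags down to the smallest sample. The submitters' processing notes name SICER 1.1. The deposited file holds islands called per library, as chromosome, start and end, with no count or score, so depth is unknown and no interval is given. Its merged regions were not used, and 0 per-sample columns were left out.

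Covered bases were summed over GENCODE 44 gene bodies plus 5 kb upstream and over 2 kb on both sides of the start, with an overlap of at least 1 base. A gain needed a factor of 2 and 1 kb. No test was run, since each group has 1 library. The code was tested on simulated data. Python 3.11.15, numpy 2.4.6, scipy 1.17.1 and matplotlib 3.10.9 were used. CG counts and motifs were read from GRCh37.

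Named are, per mark, the 5 largest gains and 3 largest losses in bases and the 3 largest of each in percent, starts with H3K4me3 in 1 genotype alone or H3K9me3 in WT, the gene clusters, and the airway channels KCNQ1, KCNE3, KCNMA1 and KCNN4. Some items that this rule names are not reported here. Others, such as KCNH4 and the genes quoted from the list of 35, were picked as examples after their values were seen. The members and lists were chosen with earlier results of these data known. Alternatives were a factor of 1.5, the body alone, scaled libraries, a minimum island of 1 kb, joining of islands up to 1 kb apart, other starts and windows, and subsets of the genes.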

Additional observations from a re-analysis of the deposited data

How the results depend on the processing

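Of 100 alternative values, 84 stayed within 1.5 times the value given, 15 moved further and 1 changed sign. Scaled to the same total covered length, channel genes had 13 H3K9me3 losses (2 as deposited), 10 H3K4me3 gains (16) and a median H3K9me3 difference of 0 percentage points (1.89), and the median H3K27me3 difference reversed to -0.63 (0.60). That median was 0 for the gene body alone. A factor of 1.5 gave 26 H3K4me3 gains. Without KCNJ, KCNK and KCNN genes there were 1 H3K9me3 loss, 10 H3K4me3 gains, and 15 H3R8me2a gains (23) and 4 losses (7). Among the 97 genes that overlap no other protein-coding gene there were 1 H3K9me3 loss, 3 H3K27me3 losses (5), 10 H3K4me3 gains and 4 losses (7), and 3 H3R8me2a losses. These last subsets hold fewer genes by construction. With the start of any protein-coding transcript, H3K9me3 was at 9 starts in WT (5). For the other alternatives the cause was not tested. Islands of at least 1 kb, merged islands, a 1 kb start window and canonical starts moved no value past 1.5 times.

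No paired analysis was possible because each mark has 1 library per genotype and the labels give no replicate numbers. Islands have no height and the depth is unknown, so a difference within an island, or a weak mark below the calling threshold, cannot be seen. KO and WT differ by colony as well as by mdig, and these cannot be told apart.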
